A study of Mus musculus with 6 samples.

Results

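Sarcomeric myosin heavy chains are the motor proteins of the thick filament, and the 9 genes described here, Myh1, Myh2, Myh3, Myh4, Myh6, Myh7, Myh7b, Myh8 and Myh13, were taken by their platform gene symbol. They make up 9 of the 22180 genes measured in the tibialis anterior, a fast muscle of the front of the lower leg. All 9 had a probe set annotated to no other gene, and where a gene had several such probe sets the brightest on average stood for it. Whether these probe sets also bind RNA of the related chains was not examined. The samples were 3 castrated male C57Bl/6 mice labelled refed and 3 sham-operated male C57Bl/6 mice labelled fasted. Surgery was done when the mice were 11 weeks old, and the muscles were taken 7 weeks later, at an age of 18 weeks. Every mouse had been without food overnight. The series design has some mice stay fasted and others eat for a short period in the morning, whereas the protocol attached to each sample gives the meal to all mice, and all then went without food until sampling. Surgery and feeding label divide the samples in the same way, so the effects of castration and of the meal cannot be told apart. The labels name a mouse for each sample and say no more about how the replicates were made. The p-values therefore set group differences against the spread between these samples only, which may be technical in part.

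Each myosin heavy chain carries the ATPase and actin-binding head that sets how fast a fibre shortens, and an adult fibre is typed by the isoform it uses. Myh4, Myh1 and Myh2 encode the fast isoforms IIb, IIx and IIa, in falling order of shortening speed, and Myh7 encodes the slow type I isoform that is also the beta chain of the heart. In the mouse the tibialis anterior is built mainly of fibres with the IIb and IIx chains, with IIa fibres in its deeper part and few slow fibres. Myh3 and Myh8 are the embryonic and perinatal chains, Myh13 is the chain of extraocular muscle, Myh6 is the alpha chain of the heart, and Myh7b is an ancient slow-type chain of the heart and of muscle spindles, which are the stretch sensors of a muscle. Myh3, Myh2, Myh1, Myh4, Myh8 and Myh13 lie in that order on chromosome 11, Myh6 and Myh7 are neighbours on chromosome 14, and Myh7b is on chromosome 2.

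Expression is given on a log2 scale for each probe set, and array medians over all probe sets lay between 5.04 and 5.10. Correlations between arrays, taken across genes, were 0.990 to 0.992 for arrays of 1 group and 0.989 to 0.992 for arrays of different groups. Of the markers of skeletal muscle, Acta1 (skeletal alpha-actin), Ckm (muscle creatine kinase), Mb (myoglobin), Des (desmin), Ryr1 and Cacna1s (calcium channels of excitation-contraction coupling) and Myf6 all had mean levels at or above the 98.8th percentile of genes. Actc1, C7 and Slc15a5 were the genes past the threshold of a limma adjusted p of 0.05, that is 3 of 22180 or 0.0135%. Sample castrated 1 stood apart for several slow-fibre genes, and some of the differences and list medians that it moves are also given without it. Probe sets differ in how strongly they bind their targets, so levels are compared between arrays for 1 gene and are not read as the relative amounts of different chains.

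None of the 9 myosin heavy chain genes passed the threshold in castrated against sham muscle, where 0.0135% of all genes did. Of the 9, 5 had a higher and 4 a lower mean in castrated samples, and the median log2 difference was 0.012, beside −0.0056 over all genes. This tally rested on single samples. Without castrated 1, 2 members were higher and 7 lower with a median of −0.16, and without sham 1, 3 were higher and 6 lower with a median of −0.21. At an unadjusted limma p under 0.05 there was 1 member, Myh8, where 7.13% of all genes were. Castrated and sham values did not overlap for 2 members, Myh1 and Myh8, where the same held for 12.8% of all genes. By the probe sets used both were lower in castrated samples, although for Myh8 a dimmer probe set went the other way with overlapping groups. Lower is a direction seen without overlap in 7.02% of all genes, and no member was higher without overlap, where 5.73% of all genes were. The adjusted p of the 9 members ran from 0.685 for Myh8 to 0.990 for Myh2 in the limma fit over all genes. The members differed in how much they varied between arrays. Myh4 spanned 0.10 on the log2 scale over the 6 arrays and Myh7 spanned 2.29.

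**Figure D1:**
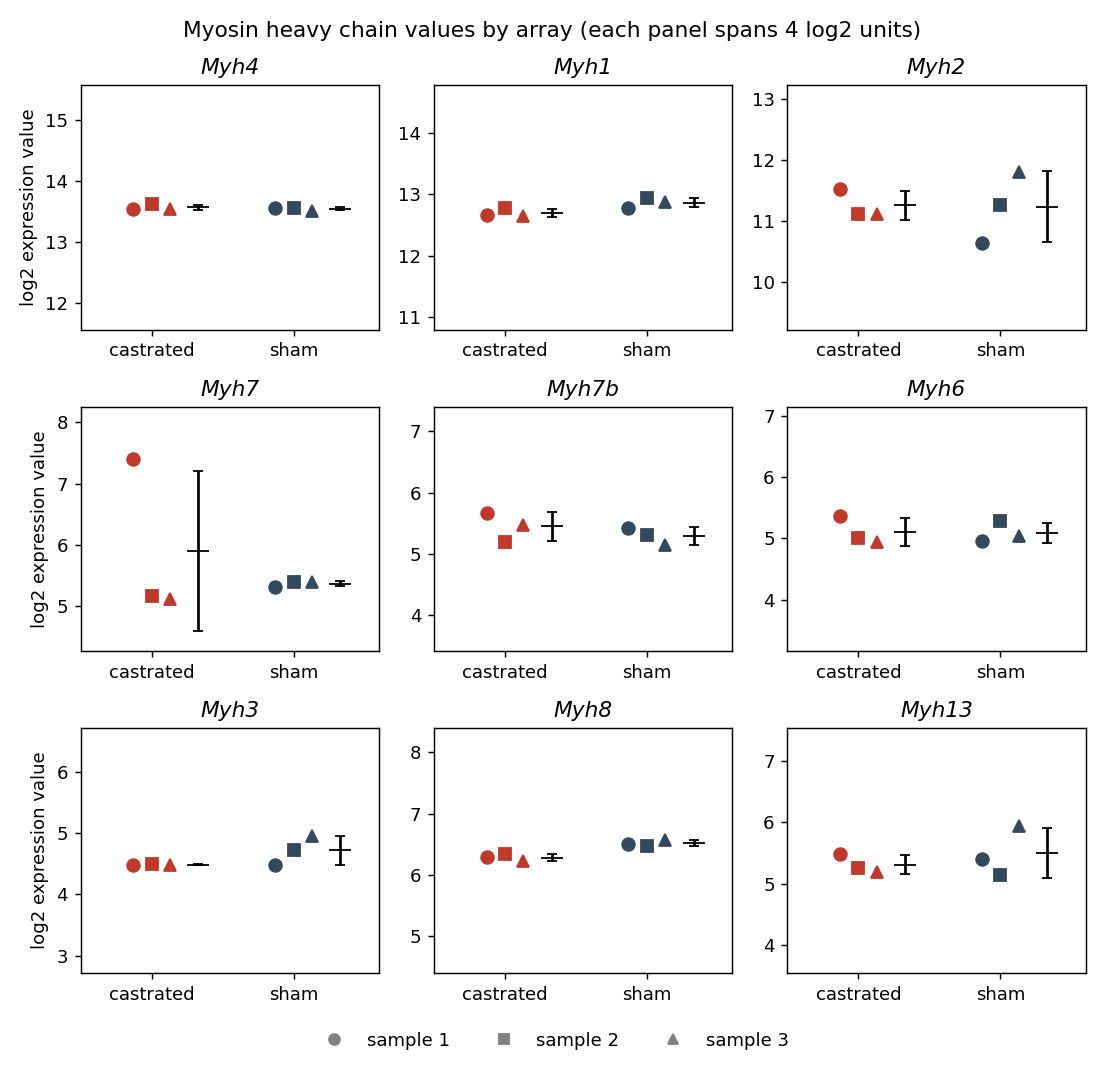
Log2 expression value of each myosin heavy chain gene on each array, with castrated samples (red) left of sham samples (dark blue), the mean and SD of 3 samples as a bar beside each group, and every panel drawn over 4 log2 units. Myh4 and Myh1 are nearly level over the arrays, Myh2 spreads widely among the sham samples, and Myh7 is high in castrated 1 alone.

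The chains of fast fibres come first. Myh4, the IIb chain, had log2 values of 13.54, 13.62 and 13.54 in castrated samples and 13.56, 13.56 and 13.52 in sham samples. The groups overlapped, and the castrated minus sham difference was 0.021 with a 95% interval of −0.19 to 0.23, or 0.879-fold to 1.17-fold. Myh4 lay at the top of the scale, with 16 of the 41345 probe sets brighter, and whether its signal could still rise there was not tested. Its SD was 0.046 in castrated and 0.025 in sham samples (n = 3 each), and 21607 of 22180 genes had a larger SD in sham samples.

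Myh1, the IIx chain, had log2 values of 12.670, 12.776 and 12.641 in castrated samples and 12.784, 12.937 and 12.871 in sham samples. All castrated values lay below all sham values, by a gap that is narrow between castrated 2 and sham 1. The difference of −0.17 (standard error 0.098, a change of −11.0%) did not pass the threshold (limma adjusted p = 0.766), and its 95% interval was −0.39 to 0.053. With any 1 sample left out it stayed between −0.21 and −0.13.

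Myh2, the IIa chain, had log2 values of 11.53, 11.12 and 11.12 in castrated samples and 10.65, 11.26 and 11.80 in sham samples. The sham samples enclosed all castrated ones, with sham 1 lowest and sham 3 highest, a 2.22-fold span. The group means were 11.26 ± 0.24 in castrated and 11.24 ± 0.58 in sham samples (SD, n = 3 each). The difference of 0.020 had a wide interval, from −0.56 to 0.60, or 0.677-fold to 1.52-fold. Its sign changed with the samples kept, at −0.27 without sham 1, −0.12 without castrated 1 and 0.30 without sham 3. Of the 22180 genes, 168 had a larger SD among sham samples than Myh2.

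The chains were also compared in pairs, as the log2 ratio of one probe set to another within a muscle. For Myh1 over Myh4 this ratio was −0.87, −0.85 and −0.90 in castrated samples and −0.78, −0.63 and −0.65 in sham samples. All castrated ratios lay below all sham ratios, by a mean of 0.19, as do the Myh1 values themselves. The exact two-sided permutation test gave p = 0.1, which is the smallest that 3 against 3 samples allow, and an adjusted p of 0.5 over the 5 pairs examined. For Myh2 over Myh4 the ratio was −2.01, −2.50 and −2.42 in castrated and −2.91, −2.30 and −1.72 in sham samples, so the groups overlapped fully (exact permutation p = 1). For Myh1 over Myh2 it was 1.14, 1.65 and 1.52 in castrated samples and 2.14, 1.68 and 1.07 in sham samples, and the difference of −0.19 was within the sham spread (exact permutation p = 0.6). The ratio of one probe set to another is not a ratio of molecules.

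**Figure D2:**
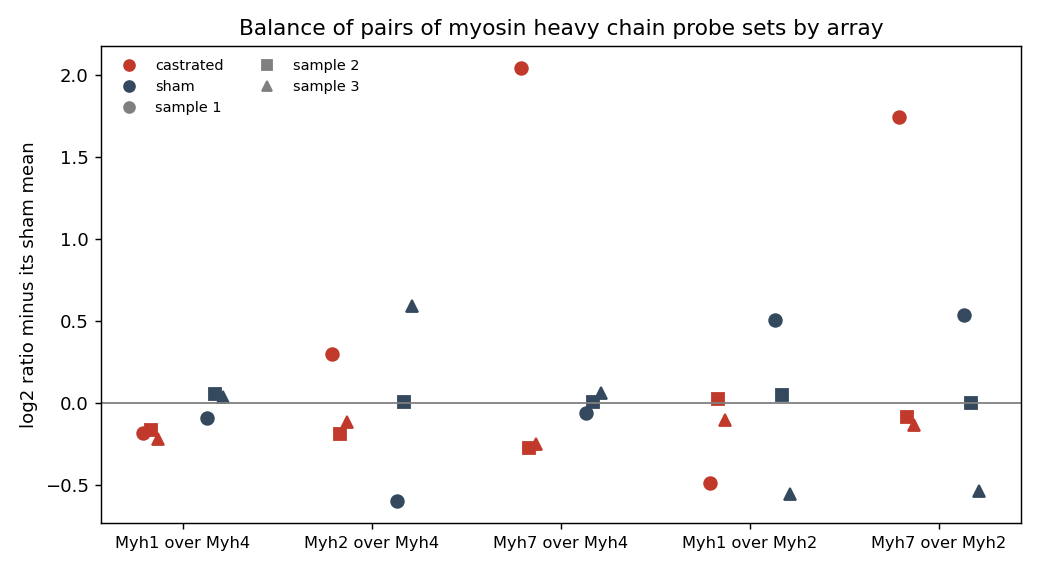
Log2 ratio of 2 myosin heavy chain probe sets on each array after subtracting the sham mean of that ratio, for 5 pairs, with castrated samples (red) left of sham samples (dark blue) and marker shapes for sample numbers. The castrated points lie below the sham points for Myh1 over Myh4, and castrated 1 stands far above the other samples in both pairs with Myh7.

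Myh2, Myh1 and Myh4, with the perinatal Myh8 after them, stand side by side on chromosome 11, and the bases just before their starts are shown so that the promoters of the chains described above, and the letters they share, can be read beside their values. The 250 bases before each RefSeq start (GRCm38.p6, all on the plus strand) are at chr11:67170777-67171026 for Myh2, chr11:67199852-67200101 for Myh1, chr11:67237562-67237811 for Myh4 and chr11:67276874-67277123 for Myh8. RefSeq promoter windows were found for all 9 members. Capitals mark the longest run of letters that the 4 windows have in common and the TATA box word TATAAA where it occurs on the gene's own strand.
Myh2: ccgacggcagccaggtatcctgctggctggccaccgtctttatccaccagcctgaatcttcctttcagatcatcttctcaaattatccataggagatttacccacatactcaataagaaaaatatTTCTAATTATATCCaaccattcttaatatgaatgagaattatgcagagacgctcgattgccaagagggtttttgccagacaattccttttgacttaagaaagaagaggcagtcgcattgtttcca
Myh1: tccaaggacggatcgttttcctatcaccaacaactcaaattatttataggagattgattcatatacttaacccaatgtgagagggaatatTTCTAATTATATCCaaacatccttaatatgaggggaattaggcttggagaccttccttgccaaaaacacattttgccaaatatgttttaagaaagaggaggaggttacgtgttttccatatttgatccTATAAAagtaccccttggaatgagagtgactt
Myh4: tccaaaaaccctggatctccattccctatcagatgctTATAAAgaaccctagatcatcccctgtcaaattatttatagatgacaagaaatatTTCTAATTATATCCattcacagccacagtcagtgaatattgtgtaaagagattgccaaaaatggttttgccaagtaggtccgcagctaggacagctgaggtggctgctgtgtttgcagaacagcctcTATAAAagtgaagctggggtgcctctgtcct
Myh8: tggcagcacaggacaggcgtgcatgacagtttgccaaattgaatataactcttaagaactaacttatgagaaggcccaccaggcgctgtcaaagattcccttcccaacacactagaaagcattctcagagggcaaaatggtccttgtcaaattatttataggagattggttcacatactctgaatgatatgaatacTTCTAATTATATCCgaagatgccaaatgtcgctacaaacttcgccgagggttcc
The shared run TTCTAATTATATCC is 14 bases long and starts 125 bases before the start in Myh2, 160 in Myh1, 158 in Myh4 and 54 in Myh8. On either strand it occurred in 4 of the 32851 windows of this length in the RefSeq promoter table (0.0122%), which are these 4. A longer run of 20 bases, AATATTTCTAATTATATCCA, which contains the first, occurred in the windows of Myh1, Myh2 and Myh4 and in no other. The word TATAAA began 32 bases before the start in Myh1, 31 in Myh4 and 29 in Myh3, and a further copy in Myh4 began 213 bases before it. In Myh2 it lies 11 bases after the annotated start and so outside the printed window. On the gene's own strand, as marked here, 7.59% of all windows hold this word, and on either strand 12.4% do. These matches describe the letters, and nothing about binding was measured.

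Myh7, the slow type I chain, had log2 values of 7.41, 5.17 and 5.11 in castrated samples and 5.32, 5.39 and 5.40 in sham samples. Castrated 1 stood 2.01 above every other array and 4.38-fold over the mean of the other 5, while castrated 2 and castrated 3 lay below all sham samples. The castrated mean was 5.90 ± 1.31 and the sham mean 5.37 ± 0.043 (SD, n = 3 each), and the castrated SD was the largest of all 22180 genes, ahead of 1.11 for the next gene. The difference of 0.53 (standard error 0.51) did not pass (limma adjusted p = 0.861), with an interval from −0.64 to 1.69. Without castrated 1 it was −0.23 (limma adjusted p = 0.850), so the sign rests on that sample. The log2 ratio of Myh7 over Myh4 behaved alike, at −6.13, −8.45 and −8.43 in castrated and −8.24, −8.17 and −8.12 in sham samples (exact permutation p = 1). Without castrated 1, its group difference was −0.26. For Myh7 over Myh2 the ratio was −4.12, −5.96 and −6.00 in castrated samples and −5.33, −5.87 and −6.40 in sham samples (exact permutation p = 0.7), and without castrated 1 the difference was −0.11.

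Several other genes of slow fibres were high in the same sample. Over all 22180 genes, 3 stood at least 1 log2 unit above every other array in castrated 1, namely Myh7, Tnnc1 (slow troponin C) and Ifna16, an interferon gene at a low level of 2.77 there. Tnnc1 was at 8.11 in castrated 1 and at 6.10 to 6.68 in the other samples. Tnni1 (slow troponin I) was at 6.84 against 5.46 to 5.87, Tnnt1 (slow troponin T) at 6.55 against 5.18 to 5.70, and Atp2a2 (the calcium pump of slow fibres and heart) at 9.09 against 7.90 to 8.13. Myl2 and Myl3 are slow regulatory and essential myosin light chains, which bind the neck of the slow heavy chain. In castrated 1 they stood at 6.01 against 5.29 to 5.61 and at 8.003 against 7.01 to 7.75. Myl6b, another light chain gene, went the other way and was lowest in castrated 1, at 5.89 against 6.19 to 6.39. Of the 9 slow-fibre thin filament and calcium genes, 5 had their highest value in castrated 1, where 17.7% of all genes did. Another 3, Myoz2, Csrp3 and Pln, were highest in sham 3, where 18.9% of all genes were. Tpm3 (slow tropomyosin) had probe sets that disagree, with 6.39 in castrated 1 against 6.42 to 6.63 elsewhere for the brighter one and 7.47 against 5.96 to 6.61 for the other. By the root mean square difference of centred values over the 6 arrays, the genes most like Myh7 were Tnnc1 (0.29), Tnni1 (0.39), Ifna16 (0.39), Atp2a2 (0.41) and Retnla (0.43), where a gene with no variation would score 0.80.

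**Figure D3:**
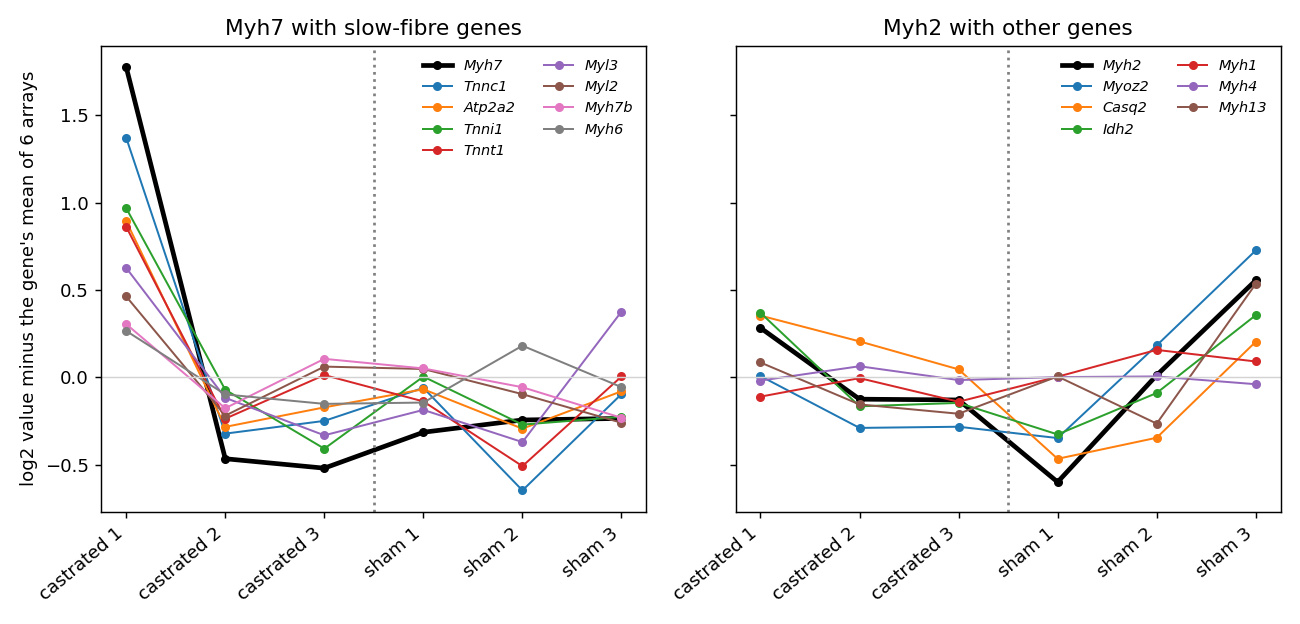
Log2 value of each gene minus its own mean over the 6 arrays, with castrated samples left of the dotted line and sham samples right of it, for Myh7 with slow-fibre genes, Myh6 and Myh7b (left panel) and for Myh2 with other myosins, Myoz2, Casq2 and Idh2 (right panel). Myh7 and the slow troponins peak in castrated 1, and Myh2 runs lowest in sham 1 and highest in sham 3.

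None of the 9 slow-fibre genes passed the group test, with 5 higher and 4 lower in castrated samples and a median log2 difference of 0.29, beside −0.0056 over all genes. Without castrated 1 the median was −0.080, with 2 higher and 7 lower. The smallest p among them belonged to Casq2, the cardiac and slow-fibre calsequestrin, at 8.62, 8.48 and 8.32 in castrated samples and 7.80, 7.93 and 8.47 in sham samples. The difference of 0.40, with overlapping groups, had a limma adjusted p of 0.696. Tnnt1 differed by 0.43, and by 0.10 without castrated 1. Tpm3 differed by −0.15 by its brighter probe set and by 0.36 by the other. Neither gene passed the threshold.

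Heart muscle also uses the Myh7 and slow troponin C genes, so heart markers were read on the same arrays. Their mean log2 level was 5.09 in castrated 1, 4.85 and 4.88 in the other castrated samples and 4.91 to 4.94 in sham samples. Of 5 measured, 3 were highest in castrated 1, namely Nppb (B-type natriuretic peptide), Tnni3 (cardiac troponin I) and Hcn4 (a pacemaker channel), each by 0.21 or less over the next array. Nppa (atrial natriuretic peptide) was at 5.69 there, below 5.88 in sham 3, and Ryr2 (the cardiac calcium release channel) at 4.63 was inside the range of the others. Tendon markers averaged 7.09, 7.02 and 6.67 in castrated samples and 6.72, 6.47 and 6.17 in sham samples, with 4 of 6 highest in castrated 1. The tendon list had a median difference of 0.50, between 0.34 and 0.66 with any 1 sample left out, with 0 past the threshold. Its genes of smallest p were Kera (0.89), Mkx (0.52) and Comp (0.48). Of these, Kera peaked in castrated 2 and Comp differed by 0.31 without castrated 1. In the tendon list 5 genes were higher and 1 was lower, Scx (−0.043). Fibroblast markers averaged 9.16, 9.02 and 8.54 in castrated and 9.02, 8.62 and 8.48 in sham samples. None of the other marker lists had a gene past the threshold. The adipocyte list had a median difference of 0.27, between 0.19 and 0.32 with any 1 sample left out. Of its 5 genes 4 were higher, and Cidec was level (−5.7e-05). Among them Fabp4, a fatty acid carrier, had groups that did not overlap (0.28), where the same held for 12.8% of all genes. The fibroblast list had a median of 0.12, which was −0.00087 without castrated 1 and 0.34 without castrated 3. Of its 5 genes 3 were higher, with Col1a1, a collagen I chain, at 0.87, or 0.61 without castrated 1. The 2 lower were Pdgfra (−0.22) and Dcn (−0.015). The medians of the remaining lists moved by more than 1.5 times or changed sign with the sample left out. They lay between 0.0087 and 0.14 for satellite cells, −0.017 and 0.083 for endothelium, and −0.083 and 0.095 for smooth muscle. For Schwann cells they lay between −0.069 and 0.12, for macrophages −0.22 and 0.034, for heart −0.021 and 0.062, and for skeletal muscle −0.11 and −0.015. The skeletal muscle list had 2 genes higher and 5 lower, with a median of −0.072 over all samples. In it Mb (−0.25) and Des (−0.13) had all castrated values below all sham values, as 7.02% of all genes did. Adipocyte markers averaged 6.54, 6.48 and 6.42 in castrated and 6.36, 6.05 and 6.29 in sham samples. The part of these marker levels in the Myh7 value was not tested. In a whole muscle, more slow fibres and more Myh7 RNA per fibre cannot be told apart.

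Myh6 and Myh7b, the other members of the slow and cardiac group, also had their highest value in castrated 1, though by small amounts. Myh6, the alpha cardiac chain, was at 5.364, 5.001 and 4.947 in castrated samples and 4.954, 5.279 and 5.042 in sham samples. The groups overlapped, and the difference was 0.012 (95% interval −0.31 to 0.33), with a sign that changed under 7 of 16 alternatives. Some of the 16, such as a change of variance prior, cannot move the difference. Myh7b was at 5.68, 5.19 and 5.48 in castrated samples and 5.42, 5.31 and 5.14 in sham samples. These also overlapped, with a difference of 0.16 (standard error 0.14, limma adjusted p = 0.848) that was 0.044 without castrated 1 and 0.28 without castrated 2. Of the spindle transcription factors Egr3, Etv1, Etv4 and Etv5, none passed. Etv1 was higher in every castrated sample, at 5.62, 5.66 and 5.38, than in sham samples, at 5.29, 5.28 and 5.05, with a limma adjusted p of 0.668, but the other Etv1 probe set differed by 0.014. Egr3 differed by −0.10. Etv5 differed by −0.014 by the probe set used and by 0.11 by its other one.

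Myh6, Myh7 and Myh7b each carry a microRNA in an intron, and these microRNAs are known to help keep slow myosin on in muscle by acting on shared repressors. Their main arms are shown, with the seed, bases 2 to 8, in capitals (RefSeq, GRCm38.p6). They lie at chr14:54949072-54949093 on the minus strand for miR-208a-3p in Myh6, at chr14:54975710-54975731 on the minus strand for miR-208b-3p in Myh7 and at chr2:155622893-155622913 on the plus strand for miR-499-5p in Myh7b.
miR-208a-3p: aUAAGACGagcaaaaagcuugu
miR-208b-3p: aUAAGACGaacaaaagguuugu
miR-499-5p: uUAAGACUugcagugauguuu
The arms from Myh6 and Myh7 share all 7 seed bases and 19 of 22 positions, and that from Myh7b shares 6 of 7 seed bases with both. Each microRNA gene was read through a probe set for the gene, and arms were not measured apart. Mir208b was at 1.95, 2.03 and 1.86 in castrated samples and 1.56, 2.08 and 2.00 in sham samples, so castrated 1, which was highest for the host gene Myh7, was within the range of the others. Mir208a differed by −0.092 and Mir499 by 0.049, and none of the 3 passed. Without castrated 1 these were −0.0063 for Mir208a and 0.10 for Mir499. All 3 lay among the dimmest probe sets, at or below the 9.46th percentile of genes by mean level.

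The chains of developing muscle are Myh3 and Myh8. Myh3, the embryonic chain, was at 4.48, 4.49 and 4.49 in castrated samples and 4.48, 4.73 and 4.96 in sham samples. Castrated values were almost equal and sham 1 lay with them, so the groups overlapped, and the difference of −0.23 (standard error 0.13) did not pass (limma adjusted p = 0.762). By mean level Myh3 was the dimmest of the 9, at the 31.6th percentile of genes, and no detection call was used here. Without sham 3 its difference was −0.12, and without sham 1 it was −0.36.

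Myh8, the perinatal chain, had probe sets that disagree. The brighter one, used for the gene, was at 6.28, 6.33 and 6.22 in castrated samples and 6.50, 6.48 and 6.57 in sham samples. All castrated values lay below all sham values, with a difference of −0.24 (standard error 0.093, 0.849-fold), an unadjusted p of 0.0328 and a limma adjusted p of 0.685. The dimmer one was at 4.29, 4.15 and 4.19 in castrated samples and 3.98, 4.20 and 3.84 in sham samples, which overlap, with a difference of 0.20 in the opposite direction. The mean of both differed by −0.018, so no direction is given for Myh8. Myh8 was 1 of the 1082 genes with more than 1 probe set, and the other 8 members had 1 each. Myh13, the extraocular chain, was at 5.49, 5.25 and 5.20 in castrated and 5.41, 5.14 and 5.94 in sham samples, with sham 3 highest. Its difference was −0.18, and 0.037 without sham 3.

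**Figure D4:**
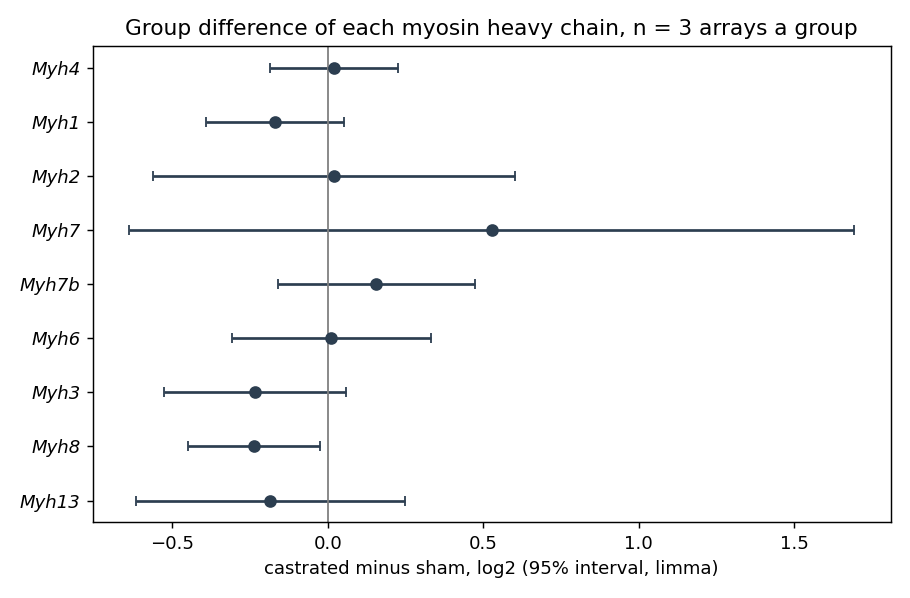
Castrated minus sham difference of each myosin heavy chain gene on the log2 scale, with the 95% interval from limma (n = 3 arrays a group) and a vertical line at 0. The interval of Myh8, from the brighter of its probe sets, is the only one clear of 0 before adjustment, and that of Myh7 is the widest.

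Sham 3 was the highest array for 4 of the 6 members on chromosome 11, Myh2, Myh3, Myh8 and Myh13, where it was highest for 18.9% of all genes. For Myh8 this holds for the brighter probe set, and the dimmer one was lowest in sham 3. The genes most like Myh2 over the 6 arrays were Ifnk (root mean square difference 0.092), Pramel20 (0.14), Slc10a4 (0.14), Bcl2a1a (0.14) and Idh2 (0.15), where a gene with no variation would score 0.36. Of these, Ifnk is an interferon gene with values of 2.66 to 3.59, and Idh2 is the mitochondrial NADP-dependent isocitrate dehydrogenase. Idh2 was at 10.59, 10.05 and 10.07 in castrated samples and 9.89, 10.13 and 10.57 in sham samples, so that sham 1 was lowest and castrated 1 and sham 3 stood above the rest, as for Myh2. Myoz2, a Z-disc protein of slow and oxidative fibres, was lowest in sham 1 at 9.22 and highest in sham 3 at 10.30 as well. With so many genes and 6 arrays, likeness of this kind is a description and nothing was tested.

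Actc1, the cardiac alpha-actin of developing muscle, was the 1 gene of the developing and regenerating list past the threshold, at 10.67, 10.76 and 10.86 in castrated samples and 9.095, 9.18 and 9.21 in sham samples (log2 difference 1.604, limma adjusted p = 0.00136). Of the 11 genes measured, 1 passed as higher and 0 as lower, and the median difference was 0.082, or 0.0066 without castrated 1. Ncam1, the adhesion molecule of denervated and regenerating fibres, differed by 0.43. The acetylcholine receptor subunits Chrna1 and Chrnd differed in opposite directions, by 0.25 and −0.25. None of these genes passed the threshold. Myog, the differentiation factor myogenin, and Myod1 were at 6.47 to 6.80 and 7.30 to 7.59 in castrated samples, and at 6.50 to 6.59 and 7.54 to 7.81 in sham samples.

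The partners of the heavy chains in the thick filament had no gene past the threshold. The 10 myosin light chain and light chain kinase genes had 5 higher and 5 lower and a median of 0.050, between −0.028 without sham 2 and 0.068 without castrated 2. Mylk4, a muscle kinase of this family, was at 11.56, 12.14 and 11.90 in castrated and 11.40, 11.76 and 11.14 in sham samples (difference 0.43, limma adjusted p = 0.696), Mylk2, the skeletal light chain kinase, differed by −0.12 and Myl2 by 0.20. Without castrated 1, Mylk2 differed by −0.069 and Myl2 by 0.024. The 9 measured thick filament and M-band genes had a median of 0.018, between 0.0083 without sham 1 and 0.040 without castrated 1. Among them Myom3 (an M-band protein of intermediate and slow fibres) differed by −0.39, or −0.59 without castrated 1. Obsl1 differed by 0.21 and Myom2 (the M-band protein of fast fibres) by 0.16. The fast-fibre thin filament and calcium list had 4 of 8 higher and a median of −0.0029, between −0.047 without sham 3 and 0.064 without sham 1. In it Tnni2, fast troponin I, differed by −0.17, Actn3, the fast Z-disc actinin, by 0.13 and Casq1, the fast calsequestrin, by 0.14. The non-sarcomeric heavy chains Myh9, Myh10, Myh11 and Myh14 were all lower in mean, with a median of −0.083. It lay between −0.13 without sham 1 and −0.075 without castrated 3. Without sham 1, castrated 2 or sham 3, 1 of them was higher and 3 were lower. Myh10, a non-muscle chain, differed by −0.35 (limma adjusted p = 0.765), Myh14 by −0.094 and Myh11, the smooth muscle chain, by −0.072. Without castrated 1 these were −0.57 for Myh10, −0.024 for Myh14 and −0.15 for Myh11.

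Genes that fold and remove myosin heavy chains gave 0 of 7 past the threshold, 3 higher and 4 lower, with a median of −0.022, between −0.13 without castrated 2 and 0.023 without castrated 1. Trim55 (MURF2, a titin-binding ubiquitin ligase of the sarcomere) was at 8.03, 8.10 and 7.96 in castrated samples and 7.77, 7.75 and 7.64 in sham samples (difference 0.31, limma adjusted p = 0.646). Trim54 (MURF3) was at 9.97, 10.07 and 10.08 in castrated samples and 10.56, 10.23 and 10.26 in sham samples (difference −0.31, limma adjusted p = 0.682). Neither pair of groups overlapped, and the signs were opposite. Unc45a, the general-cell form of the myosin chaperone, differed by −0.25 (limma adjusted p = 0.716).

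The 27 measured regulators of isoform choice had 0 past the threshold, 9 higher and 18 lower, with a median of −0.030. That tally rested on castrated 1, without which 15 were higher and 12 lower with a median of 0.011. Ppargc1a, the coactivator PGC-1alpha, which drives oxidative and slow-fibre genes, was at 9.41, 10.53 and 10.16 in castrated samples and 8.84, 9.03 and 8.97 in sham samples (difference 1.09, limma adjusted p = 0.446). Castrated 1, the sample with high Myh7, had the lowest Ppargc1a value of the castrated samples, and without it the Ppargc1a difference was 1.40. Ppp3ca, the catalytic subunit of calcineurin, the phosphatase that favours slow and IIa myosin, was at 10.39, 10.59 and 10.59 in castrated samples and 10.10, 10.25 and 10.18 in sham samples (difference 0.34, limma adjusted p = 0.626). Rcan1, a calcineurin inhibitor that is itself induced by calcineurin, was at 10.42, 9.46 and 9.63 in castrated samples and 10.61, 10.44 and 10.30 in sham samples (difference −0.62, limma adjusted p = 0.668). For Rcan1 castrated 1 lay with the sham samples and the other castrated samples lay below them. Without castrated 1 the Rcan1 difference was −0.91. These lists were chosen with earlier results of these data known and no list was tested as a set.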

How the data were processed

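RNA from 3 castrated and 3 sham tibialis anterior muscles was labelled with an Affymetrix whole-transcript kit, per the labels' protocols. The authors deposited a log2 value for each probe set and array. The submitters' processing notes name Partek and no version. How background was corrected and how arrays were normalized or centred is not given in the sources used here. Precision is limited by having 3 arrays a group, named in the titles.

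Of 41345 probe sets, 23521 carry 1 gene symbol, 1814 several (none of them a member) and 16010 none in the platform annotation. Symbols were updated by Entrez identifier through a mouse table (GRCm38.p6), in which 23328 matched. This left 22180 genes, with no filter on dim ones.

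The main test was limma 3.58.1 in R 4.3.3 for castrated minus sham, without covariates. P-values were adjusted by Benjamini-Hochberg over the 22180 genes and read at 0.05, and intervals are 95%. Member ratios were tested by exact permutation. In simulated data modelled on castrated and sham arrays, where 200 of 22180 genes were shifted, 22% of shifts of 0.5 log2 units were recovered, 68% of 1 and 100% of 1.5, with 3 false calls.

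The members and 21 lists (157 genes, 150 measured) were chosen with earlier results of these data known. Named were all members, the 3 genes of smallest p in each of the myosin, sarcomere, regulator, microRNA, developing muscle and spindle lists, Actc1, and the 5 genes nearest to each member spanning at least 1 log2 unit, leaving out unnamed gene models and receptor genes. Cell type marker lists were described by level and median. Other genes, such as the slow troponins and single markers, were named after their values were seen. Alternatives were other normalizations, filters, probe set rules, variance models, the replicate block and leaving out each sample. Reading Myh8 by its dimmer probe set was added after seeing the data. Figures were drawn with matplotlib 3.10.9.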

Additional observations from a re-analysis of the deposited data

How the results depend on the processing

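No member tested passed the threshold under any of the 18 alternatives. The filter that removed the lowest 50% of genes tested 5 of the 9 members, and the other alternatives all 9. Over all genes 3 passed, and under the 17 alternatives that refit all genes the count lay between 0 and 16. It was 9 without genes in the lowest 25% by mean level, 16 without those in the lowest 50%, 10 with a trended robust variance prior, 1 with every probe set on its own and 0 without variance moderation. Leaving out 1 sample gave 3 to 4. Deviations of same-numbered samples from their group means had low correlations over genes, of 0.076, 0.033 and 0.047. Each sample still correlated best with its own number, with at most 0.0018 between different numbers. Whether same-numbered samples are pairs was not tested. The replicate block gave 2 genes, 0 of them members, and changed no member's call.

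Small differences changed sign. Myh6 was −0.024 after quantile normalization, −0.026 with median centring, −0.025 after cyclic loess and −0.021 with array weights. With median centring Myh2 was −0.017 and Myh4 −0.017. Myh2 over Myh4, at −4e-04, was 0.038 after quantile normalization and 0.021 after cyclic loess. Dropping single samples moved Myh2 between −0.27 and 0.30, Myh4 between −0.0061 and 0.035, Myh6 between −0.12 and 0.11, Myh7 between −0.23 and 0.92, Myh7b between 0.044 and 0.28, Myh3 between −0.36 and −0.12, and Myh13 between −0.36 and 0.037. The ratios ran from −0.30 to 0.30 for Myh2 over Myh4, −0.26 to 0.90 for Myh7 over Myh4, −0.47 to 0.065 for Myh1 over Myh2, −0.11 to 0.83 for Myh7 over Myh2 and −0.24 to −0.16 for Myh1 over Myh4. Myh8 was 0.20 by its dimmer probe set, an alternative chosen after seeing the data, and its adjusted p ran from 0.406 to 0.979 over all alternatives. Myh1, Myh3 and Myh7b kept their direction under every alternative run. Some of these, such as the filters, the replicate block and the trended variance prior, cannot change it. The cause of these changes was not tested beyond the samples and probe sets named. No detection calls were used, so how well arrays followed the dimmer members, or Myh4 near the top of the scale, was not tested.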
